A study of Mus musculus with 6 samples.

Results

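The genes described here are 10 of the 33276 in a table of read counts from fibroadipogenic progenitors (FAPs), chosen by name: the ligands Tgfb1, Tgfb2 and Tgfb3, the receptors Tgfbr1, Tgfbr2 and Tgfbr3, and the latent TGF-beta binding proteins Ltbp1, Ltbp2, Ltbp3 and Ltbp4. FAPs are resident stromal cells of skeletal muscle, able to turn into fibroblasts or fat cells. The circulating group is 3 libraries of FAPs from peripheral blood, and the muscle group is 3 libraries of FAPs from muscle. Both groups came from mice with middle cerebral artery occlusion (MCAO), which blocks a main artery of the brain and serves as a stroke model. The occlusion is shared by all 6 libraries, and no control without it was analysed here. The labels give neither age nor sex, nor how the cells were isolated, nor whether animals were pooled. The comparison asks how FAPs in the blood differ in expression from FAPs that reside in muscle.

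TGF-beta is made as a precursor that is cut by furin and secreted with its own propeptide still wrapped around it, and in this latent form it cannot bind receptors. A latent TGF-beta binding protein (LTBP) is usually joined to the propeptide and anchors the complex in the fibrillin and fibronectin matrix, from which integrins, proteases or thrombospondin release the ligand. The free ligand is captured by TGFBR2, with TGFBR3 (betaglycan) as an accessory receptor, and TGFBR2 then activates the kinase TGFBR1, which phosphorylates SMAD2 and SMAD3. In injured muscle TGF-beta is known as a driver of FAP survival and matrix deposition.

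Libraries held 5522193 to 13813329 counts in the circulating group and 17532558 to 23424039 in the muscle group, or 3106011 to 7880709 in circulating and 12663430 to 15864333 in muscle libraries without 18S ribosomal RNA. The 18S rows held 42.9% to 60.1% of counts in circulating and 27.8% to 32.3% in muscle libraries, and without them still none of the 10 genes passed the edgeR test used below. Levels are CPM, counts divided by library size after scaling of the sizes by the trimmed mean of M values (TMM) and put on a per-megaread scale, and fold changes are log2, circulating minus muscle. The FAP and mesenchymal markers Pdgfra, Cd34, Ly6a, Dcn, Col1a1, Col3a1, Pi16, Dpp4, Lum and Pdgfrb all had reads, and their summed level was 10770 to 15400 CPM in circulating and 24200 to 30680 CPM in muscle libraries. Of these 10, 8 had a negative log2 fold change, and Dpp4 and Pi16, which mark early progenitors, had positive ones. All 10 had a mean of at least 20 CPM, and of the 4736 tested genes that abundant 3709 were negative. The median log2 fold change of the 10 markers was -1.29, beside -0.65 for genes that abundant. Without overlap between the groups 6 of the 10 were lower in circulating FAPs and 1, Dpp4, was higher. Among the 4736 genes 1363 (28.8%) were lower without overlap and 79 higher. In bulk libraries fewer cells of a type and less RNA per cell cannot be told apart.

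Of the 10 genes, 7 had a negative log2 fold change and none passed an adjusted p of 0.05 over all genes in edgeR (4 had an unadjusted p under 0.05, all lower in circulating FAPs; over all genes 9.64% were lower and 9.71% higher at that p). With DESeq2, 3 were lower past that threshold (Tgfb2, Tgfbr1 and Ltbp4) and none higher. For scale, 0.109% of all 20248 genes tested passed in edgeR. Of the 20248, 9211 had a negative log2 fold change, as did 3709 of the 4736 genes of mean at least 20 CPM. In DESeq2, 10.3% of the 13506 genes that were given an adjusted p were lower, and 15.4% of those of mean at least 20 CPM. Ltbp4 had the lowest log2 fold change of the 10, with Tgfbr1 within its SE. The ratio of Ltbp1 to Ltbp4 reads was 4.96-fold higher in circulating FAPs, without overlap between the groups. Its exact permutation p was 0.1, or 0.3 adjusted over 12 pairs, and pair ratios were added after the data were seen. Among the receptors, Tgfbr1 and Tgfbr2 were lower in every circulating library than in any muscle library, while Tgfbr3 overlapped.

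Ordered by level per kilobase of exon in circulating FAPs, Tgfbr3 came first at 45.5 ± 10.7 CPM per kilobase (SD, n = 3), followed by Ltbp4 at 27.7 ± 12.2, Ltbp1 at 18.6 ± 12.9, Tgfbr2 at 14.6 ± 7.70 and Tgfb3 at 10.7 ± 5.35 CPM per kilobase. Tgfb2 at 3.73 ± 0.0992 and Tgfbr1 at 3.18 ± 0.531 CPM per kilobase followed, and Ltbp3, Ltbp2 and Tgfb1 were lowest at 1.02 ± 0.363, 0.848 ± 0.602 and 0.637 ± 0.0491. In muscle FAPs Ltbp4 came first at 90.1 ± 10.1 CPM per kilobase, ahead of Tgfbr3 at 63.4 ± 12.9 and Tgfbr2 at 34.0 ± 6.24. Tgfb3 at 13.0 ± 7.39, Ltbp1 at 11.3 ± 1.72, Tgfb2 at 10.2 ± 2.35 and Tgfbr1 at 10.04 ± 3.72 CPM per kilobase lay within each other's spread, and Ltbp3, Ltbp2 and Tgfb1 were again lowest at 2.63 ± 1.53, 0.709 ± 0.511 and 0.424 ± 0.187. Ltbp4, Tgfbr3 and Tgfbr2 stood clear of their neighbours by more than 1 SD in muscle. In circulating FAPs the neighbours from Ltbp4 down to Tgfb3 lay within 1 SD of each other.

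**Figure D1:**
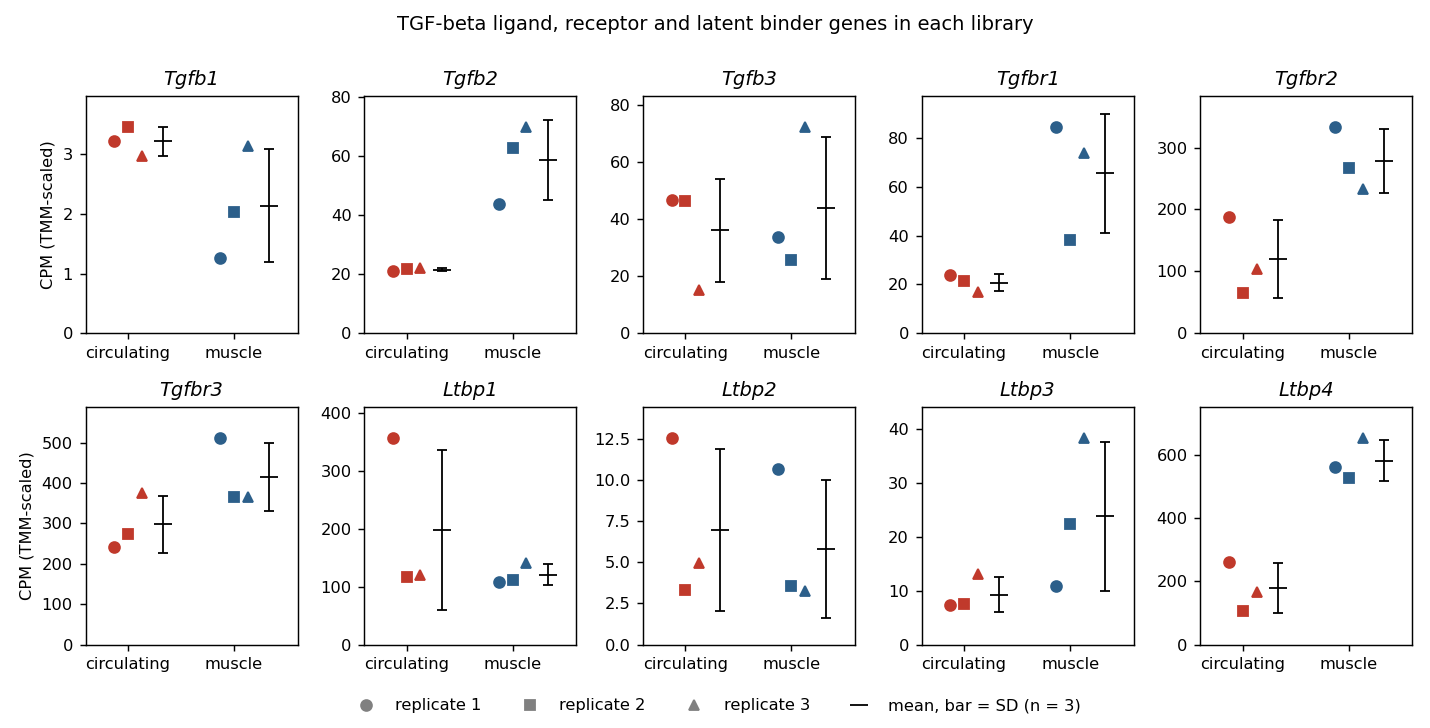
Level of each of the 10 genes in each library, in CPM on linear axes that start at 0, with circulating libraries left of muscle libraries; symbols mark replicates and the black bar is the mean with its SD (n = 3). Tgfb2, Tgfbr1, Tgfbr2 and Ltbp4 have every circulating library below every muscle library, and the Ltbp1 mean in circulating FAPs rests on replicate 1.

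Some of these levels lay near the background of the libraries. Background was taken as the median level per kilobase over 379 genes of vomeronasal, taste and trace amine receptors, whose known expression is in sensory organs. With 18S left out of library sizes it came to 0.833, 1.28 and 0.913 CPM per kilobase in circulating replicates 1, 2 and 3, against 0.339, 0.442 and 0.279 CPM per kilobase in muscle replicates 1, 2 and 3. Every circulating library was thus above every muscle library. Tgfb1 stood at 1.33, 1.30 and 1.39 times this background in circulating and 0.935, 1.42 and 2.86 times in muscle replicates 1, 2 and 3, so that it reached no more than 1.42 times background in 5 of the 6 libraries. Ltbp2 stood at 3.20, 0.768 and 1.42 times in circulating and 4.88, 1.53 and 1.82 times in muscle replicates 1, 2 and 3. The other genes, Ltbp3 apart, lay at least 6.14 times above background in every library.

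Among the ligands, Tgfb2 and Tgfb3 carried nearly all reads. Tgfb2, the isoform whose propeptide lacks the integrin-binding motif of the other isoforms, was at 20.9, 21.7 and 22.1 CPM in circulating replicates 1, 2 and 3, against 43.7, 62.7 and 70.0 CPM in muscle replicates 1, 2 and 3. The circulating libraries were close together and all below the muscle libraries. Its log2 fold change was -1.45 ± 0.53 (SE; adjusted p = 0.204 in edgeR, 0.0154 in DESeq2), and under the other settings its adjusted p ran from 0.0154 to 0.408. Groups without overlap on the lower side were found for 11.4% of all genes tested, and for 28.8% of the 4736 genes of mean at least 20 CPM.

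Tgfb3, which acts in palate closure and wound repair, was at 46.8, 46.5 and 15.3 CPM in circulating replicates 1, 2 and 3, against 33.8, 25.7 and 72.5 CPM in muscle replicates 1, 2 and 3. The groups overlapped, and a library of each group stood apart: replicate 3 was the lowest of the circulating libraries and replicate 3 the highest of the muscle libraries. The log2 fold change of -0.28 ± 0.65 (adjusted p = 0.818 in edgeR) had no stable sign, at 0.51 with scaling on abundant genes and 0.22 without muscle replicate 3. Tgfb1, the isoform made by platelets and many immune cells, was at 3.21, 3.46 and 2.97 CPM in circulating replicates 1, 2 and 3 (44, 26 and 27 reads), against 1.26, 2.03 and 3.13 CPM in muscle replicates 1, 2 and 3 (21, 40 and 64 reads). These groups overlapped too (0.58 ± 0.53, adjusted p = 0.534 in edgeR). The background given above also moved in the direction of the Tgfb1 difference, and its part in it was not tested.

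Within a library the share of each ligand does not depend on how libraries are scaled to each other. Of ligand reads per kilobase, Tgfb3 held 76.5%, 75.6% and 50.6% in circulating replicates 1, 2 and 3, against 56.2%, 40.4% and 62.8% of them in muscle replicates 1, 2 and 3. Tgfb2 held 20%, 20.6% and 42.8% in circulating and 42.4%, 57.5% and 35.4% in muscle replicates 1, 2 and 3. For Tgfb2 and for Tgfb3 the shares overlapped between the groups (exact permutation p = 0.3 for each, two-sided, or 0.429 adjusted over 10 shares). Tgfb1 held 4.63% ± 1.71 in circulating and 1.79% ± 0.370 in muscle libraries (SD, n = 3), without overlap and with p = 0.1 in the exact permutation test, the smallest that 3 against 3 allows (0.2 adjusted). Since Tgfb1 lay near background, this share holds background reads in unknown part, and the difference of 2.85 percentage points was 1.86 without circulating replicate 3 and 0.607 with the mean background of each library subtracted.

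Both kinase receptors had lower values in circulating FAPs, and neither passed in edgeR. Tgfbr1, the type I kinase, was at 23.9, 21.4 and 17.02 CPM in circulating replicates 1, 2 and 3, against 84.7, 38.2 and 73.8 CPM in muscle replicates 1, 2 and 3. The groups did not overlap, although muscle replicate 2 stood well below the other muscle libraries (-1.66 ± 0.56, adjusted p = 0.188 in edgeR and 0.0133 in DESeq2). Tgfbr2, the type II kinase that binds the ligand, was at 188.6, 65.2 and 104.5 CPM in circulating replicates 1, 2 and 3, against 333.8, 266.8 and 233.5 CPM in muscle replicates 1, 2 and 3. All circulating libraries again lay below all muscle libraries, with a nearly 3-fold spread among the circulating ones. Tgfbr2 did not pass with either tool (-1.22 ± 0.45, adjusted p = 0.207 in edgeR and 0.0907 in DESeq2).

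Tgfbr3, the proteoglycan betaglycan that presents TGF-beta2 in particular to TGFBR2, was at 242.8, 274 and 376.6 CPM in circulating replicates 1, 2 and 3, against 512.1, 366.5 and 365.6 CPM in muscle replicates 1, 2 and 3. Circulating replicate 3 lay above muscle replicates 2 and 3, so the groups overlapped (-0.48 ± 0.34, adjusted p = 0.430 in edgeR and 0.416 in DESeq2). With scaling on abundant genes the sign turned, at 0.29. Of receptor reads per kilobase, Tgfbr3 held 58.2%, 78.8% and 78.9% in circulating replicates 1, 2 and 3, against 59.3%, 59.3% and 58.4% of them in muscle replicates 1, 2 and 3. The muscle libraries were nearly identical, and circulating replicate 1 was at the muscle value while the other circulating libraries were well above it (exact permutation p = 0.4, or 0.444 adjusted). Tgfbr2 mirrored this at 36.1%, 15% and 17.5% in circulating and 30.9%, 34.5% and 29.8% in muscle replicates 1, 2 and 3. The Tgfbr2 difference of -8.87 points was -15.5 without circulating replicate 1 and -4.93 without circulating replicate 2. Tgfbr1 held 5.16% ± 1.39 in circulating and 9.27% ± 2.84 in muscle libraries, without overlap (exact permutation p = 0.1, or 0.2 adjusted), but circulating replicate 2 at 6.17% lay just below muscle replicate 2 at 6.20%.

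Among the latent binders, Ltbp4, which binds latent TGF-beta1 and also helps elastic fibres to assemble, was at 262.8, 106.5 and 167.5 CPM in circulating replicates 1, 2 and 3, against 563.5, 528.9 and 654.9 CPM in muscle replicates 1, 2 and 3. Even the highest circulating library held less than the lowest muscle library. The log2 fold change was -1.70 ± 0.39 (adjusted p = 0.125 in edgeR and 0.00978 in DESeq2), and 7.8% of all genes tested had a lower one. Genes of mean at least 20 CPM, Ltbp4 among them, had a median of -0.65, beside 0.15 over all genes. A rank among the abundant genes was not computed. Ltbp4 passed in edgeR without circulating replicate 1 (adjusted p = 0.0453). Over the 17 other settings its adjusted p ran from 0.00978 to 0.297 and its log2 fold change from -2.15 to -0.998.

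Ltbp1, the founding member of the family and a fibrillin and fibronectin binder, was at 357.7, 117.1 and 120.1 CPM in circulating replicates 1, 2 and 3, against 108.8, 111.4 and 141.9 CPM in muscle replicates 1, 2 and 3. Circulating replicate 1 was about 3 times the other circulating libraries, which lay within the muscle range. The log2 fold change of 0.72 ± 0.50 (adjusted p = 0.427 in edgeR and 0.603 in DESeq2) was -0.09 without circulating replicate 1. Ltbp1 thus lay within or above the muscle range in all 3 circulating libraries, in which Ltbp4 was below it.

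The 5′ flanks of these 2 genes are shown because their shares of latent binder reads, given below, differed in opposite directions. Together they held nearly all of these reads, so a higher share of 1 entails a lower share of the other. The shares thus do not show opposite changes in level. RefSeq (GRCm38.p6) lists separate starts for each gene, and counts per gene symbol cannot tell transcripts from different starts apart. The windows are the 250 bases before a start, written 5′ to 3′ on the strand of the gene. Capitals mark the motifs found on either strand, which are the cAMP response element (CRE) TGACGTCA in the first, the SMAD CAGA box CAGACA, read here on the other strand, in the second, and the GC box GGGCGG, some copies of which overlap, in the third.
Ltbp1, chr17:75005279-75005528, plus strand: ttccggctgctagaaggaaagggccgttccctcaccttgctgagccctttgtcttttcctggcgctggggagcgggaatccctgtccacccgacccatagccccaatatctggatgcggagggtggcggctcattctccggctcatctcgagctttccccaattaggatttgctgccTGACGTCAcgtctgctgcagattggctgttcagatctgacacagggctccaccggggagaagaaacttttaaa
Ltbp1, chr17:75178531-75178780, plus strand: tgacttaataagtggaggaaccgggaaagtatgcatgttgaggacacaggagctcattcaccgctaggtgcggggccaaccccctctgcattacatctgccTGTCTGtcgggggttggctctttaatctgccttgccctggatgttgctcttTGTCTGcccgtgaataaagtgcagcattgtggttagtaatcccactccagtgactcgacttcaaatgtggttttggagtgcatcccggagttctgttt
Ltbp4, chr7:27333664-27333913, minus strand: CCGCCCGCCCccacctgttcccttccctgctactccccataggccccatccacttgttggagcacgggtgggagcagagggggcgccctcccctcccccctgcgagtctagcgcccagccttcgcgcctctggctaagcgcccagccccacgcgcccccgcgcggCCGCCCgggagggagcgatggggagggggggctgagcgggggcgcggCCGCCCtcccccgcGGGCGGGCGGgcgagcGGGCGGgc
The windows printed hold 1 CRE, 2 CAGA boxes and 7 GC boxes in that order, and their GC content is 56.8%, 50.8% and 79.2%. Other Ltbp4 windows are not printed, and the one shown has the most GC boxes. They are chr7:27333649-27333898 (5 GC boxes, GC content 79.2%) and chr7:27337613-27337862 (3 GC boxes, GC content 64.4%). Of 32851 mouse windows of this length, 1.55% hold the CRE, 17.1% the CAGA box and 32.7% the GC box. The RefSeq promoter table used held 8 of the 10 genes, with 12 windows in all; the CAGA box was in 3 of these 12, the GC box in 6 (of which a pair of Ltbp4 windows overlap in most of their length and share boxes), the CRE in 1, the TATA box TATAAA in 1 (Tgfb2; 12.4% of all windows), and the AP-1 motif TGANTCA (6.75% of all windows) and the SMAD palindrome GTCTAGAC (0.167%) in none.

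Ltbp3, which is needed for latent TGF-beta secretion in bone and teeth, was at 7.30, 7.45 and 13.1 CPM in circulating replicates 1, 2 and 3, against 10.9, 22.3 and 38.4 CPM in muscle replicates 1, 2 and 3. Circulating replicate 3 lay above muscle replicate 1, and the muscle libraries spread more than 3-fold (-1.37 ± 0.70, adjusted p = 0.305 in edgeR and 0.104 in DESeq2). In circulating replicates 1, 2 and 3 Ltbp3 was only 1.68, 1.55 and 3.40 times the background. Ltbp2, which binds fibrillin and not latent TGF-beta, was at 12.6, 3.33 and 4.94 CPM in circulating replicates 1, 2 and 3, against 10.6, 3.55 and 3.23 CPM in muscle replicates 1, 2 and 3. Replicate 1 was the highest of each group, the groups overlapped, and the sign of the log2 fold change (0.27 ± 0.75, adjusted p = 0.852 in edgeR) turned in 3 settings. An antisense transcript, D030025P21Rik, overlaps 9.34% of the Ltbp2 exon length; whether strand was used in counting is not given, so shared reads cannot be told apart.

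Of latent binder reads per kilobase, Ltbp4 held 53.2%, 57.5% and 66.1% in circulating replicates 1, 2 and 3, against 87.3%, 86.0% and 85.0% of them in muscle replicates 1, 2 and 3. Ltbp1 held 43.8%, 38.2% and 28.7% in circulating and 10.2%, 10.9% and 11.1% in muscle replicates 1, 2 and 3. For both, the muscle libraries agreed within a few percentage points and every circulating library lay far outside them. The differences of 26.1 points for Ltbp1 and -27.2 points for Ltbp4 had p = 0.1 in the two-sided exact permutation test, the smallest possible (0.2 adjusted over 10 shares). The share of Ltbp2, near background, was 1.66% ± 0.310 in circulating and 0.696% ± 0.528 in muscle libraries (SD, n = 3), also without overlap. Ltbp3 did not differ beyond its spread at 2.53% ± 1.34 in circulating and 2.45% ± 1.18 in muscle libraries (exact permutation p = 0.9).

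**Figure D2:**
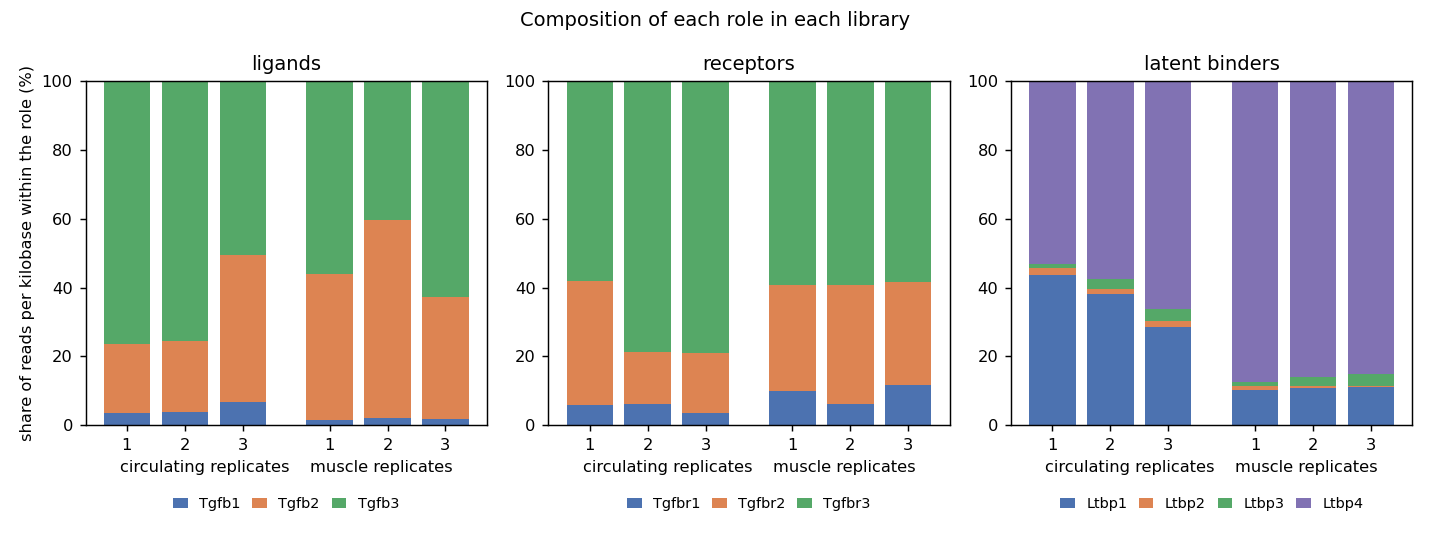
Share of each gene in the reads per kilobase of exon of its role (ligands, receptors, latent binders), in percent, with 1 bar per library and the circulating libraries left of the muscle libraries. Ltbp1 holds 28.7% to 43.8% of latent binder reads in circulating libraries and 10.2% to 11.1% in muscle libraries.

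Ratios between genes of the same role were computed for all 12 pairs, and 4 had no overlap between the groups. Over single genes, 27.7% of all tested had no overlap in either direction. A rate over other gene pairs was not computed, and pairs that share a gene are not independent. The ratio of Ltbp1 to Ltbp4 reads was 1.36, 1.10 and 0.717 in circulating replicates 1, 2 and 3, against ratios of 0.193, 0.211 and 0.217 in muscle replicates 1, 2 and 3. On the log2 scale it averaged 0.03 ± 0.47 in circulating and -2.27 ± 0.09 in muscle libraries (SD, n = 3), a difference of 2.31, and stayed between 2.10 and 2.57 when each library was left out and at 2.32 with background subtracted. The exact permutation p was 0.1, or 0.3 adjusted over the 12 pairs. Circulating replicate 1, the library with the high Ltbp1 level, also had the highest Ltbp4 level of its group, and without it the difference was 2.10.

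The other pairs without overlap were Tgfb1 over Tgfb2 (log2 difference 2.10), Ltbp2 over Ltbp4 (2.05) and Tgfbr1 over Tgfbr3 (-1.11), each with exact permutation p = 0.1. The first includes Tgfb1 and the second Ltbp2, both of which lay near background in most libraries. The ratio of Tgfbr1 to Tgfbr3 reads was 0.0983, 0.0782 and 0.0452 in circulating replicates 1, 2 and 3, against ratios of 0.165, 0.104 and 0.202 in muscle replicates 1, 2 and 3. It was lower in each circulating library, by little in replicate 1 relative to muscle replicate 2. Tgfbr1 reads were fewer than Tgfbr2 reads in all 6 libraries, and the ratio overlapped between the groups: Tgfbr1 over Tgfbr2 was 0.127, 0.329 and 0.163 in circulating and 0.254, 0.143 and 0.316 in muscle replicates 1, 2 and 3 (difference -0.25, exact permutation p = 0.8).

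**Figure D3:**
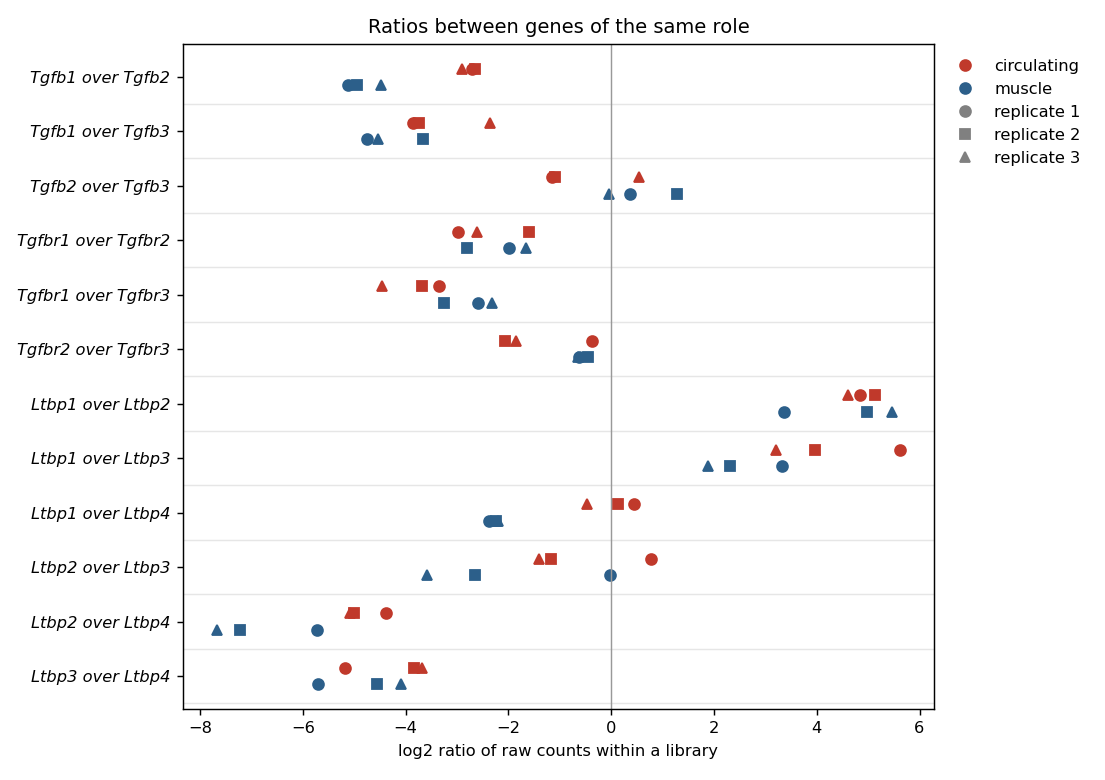
Log2 ratio of raw counts between genes of the same role in each library, for all 12 pairs, with circulating libraries drawn above muscle libraries and symbols for replicates. For Ltbp1 over Ltbp4 the muscle libraries lie together at a mean of -2.27 and the circulating libraries lie around 0.03.

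How far the genes differ depends on the scaling between libraries. Scaling on genes of mean at least 20 CPM (abundant genes) moved log2 fold changes by a median of 0.75 per gene and upper quartile scaling by a median of 0.68, both toward higher values in circulating FAPs. With scaling on abundant genes 5 of the 10 genes had a negative log2 fold change: Tgfb2 at -0.70 (adjusted p = 0.408), Tgfbr1 at -0.87 (adjusted p = 0.300), Tgfbr2 at -0.53 (adjusted p = 0.368), Ltbp3 at -0.60 (adjusted p = 0.583) and Ltbp4 at -0.998 (adjusted p = 0.0880), all in edgeR. The rest were positive, among them Ltbp1 at 1.39 (adjusted p = 0.0861 in edgeR) and Tgfb1 at 1.34 (adjusted p = 0.154). The adjusted p of Ltbp1 was the smallest of the 10 with this scaling, and its circulating mean rests on replicate 1. With this scaling 5120 of all 20248 genes tested were negative, as were 2152 of the 4736 genes of mean at least 20 CPM. None of the 10 passed with it, beside 0.0296% of all genes. The same 5 of the 10 were negative in each of the 18 settings, Tgfb1 was positive in each, and the sign of the remaining 4 turned at least once. The median over the 10 was -0.85 with TMM and -0.12 with scaling on abundant genes, against 0.15 and 0.89 over all genes tested. The median of the 10 was thus below that of all genes under both scalings. Genes of mean at least 20 CPM had a median of -0.65 under TMM; 7 of the 10 genes were that abundant, and 4 of these 7 were lower without overlap and with an unadjusted p under 0.05 in edgeR. Of all genes that abundant, 28.8% were lower without overlap and 21.8% were lower at that p.

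**Figure D4:**
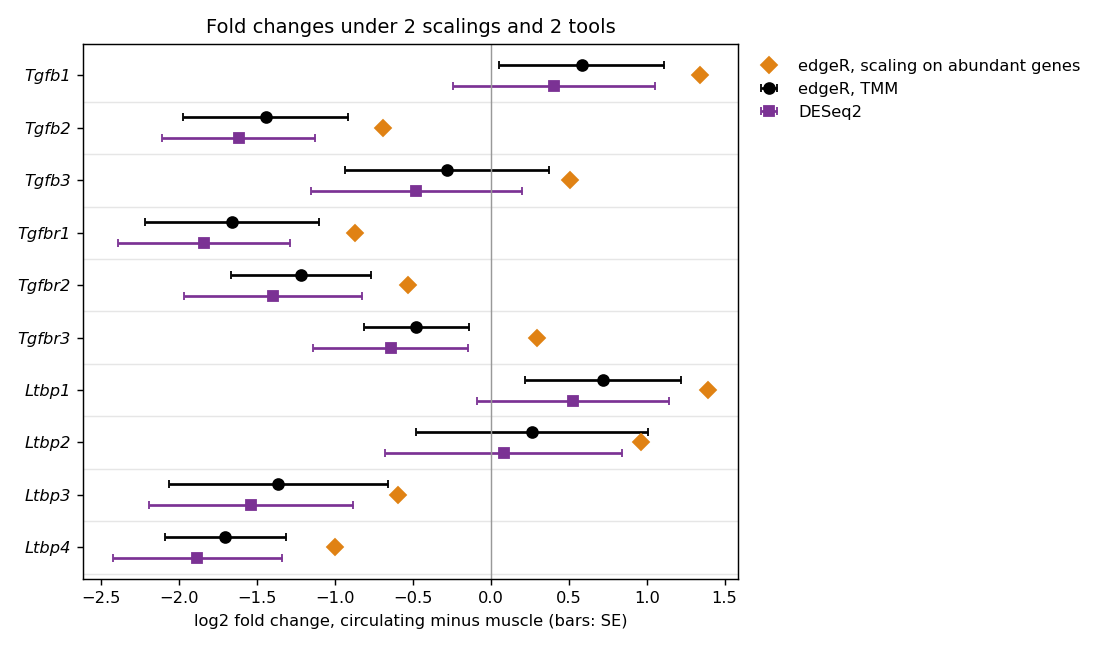
Log2 fold change of each gene, circulating minus muscle, from edgeR with TMM scaling (with its SE), from edgeR with scaling on abundant genes and from DESeq2 (with its SE). Tgfb2, Tgfbr1, Tgfbr2, Ltbp3 and Ltbp4 stay below 0 with all 3, while Tgfb3 and Tgfbr3 cross 0 with scaling on abundant genes.

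Summed levels of some markers of other cells differed between the groups. All 11 markers of monocytes and macrophages had positive log2 fold changes, 3 of them past the threshold in DESeq2 and none in edgeR. Over all 20248 genes tested, 9211 were negative, and 150 were higher past the threshold in DESeq2. Of these 9211, 3709 were among the 4736 genes of mean at least 20 CPM, a level that each of the 11 lay below. Genes below that level thus leaned more to the positive side than all genes did. The median of the 11 was 0.96, beside 0.15 over all genes tested. Their summed levels were 63.6 to 146 CPM in circulating and 23.96 to 37.2 CPM in muscle libraries. The background given above was also higher in circulating libraries, and its part in these low levels was not tested. The 8 neutrophil markers summed to 17.2 to 120 CPM in circulating and 5.23 to 11.3 CPM in muscle libraries. The circulating sums rested on different genes. S100a9 held most of the sum in circulating replicate 1 (69.8 CPM), and S100a8 and Camp in replicate 3 (61.4 and 47.7 CPM). The 8 markers of pericytes and smooth muscle summed to 23.4 to 54.5 CPM in circulating and 67.3 to 193.8 CPM in muscle libraries. Of these 8, 6 had a negative log2 fold change, while Myh11 (1.85 ± 0.77) and Cnn1 (0.90 ± 0.93) had positive ones. Notch3, Kcnj8 and Mcam were high in muscle replicate 3 alone (25.5, 16.1 and 14.7 CPM). This list thus gave no single direction. The 5 tenocyte markers summed to 350.3 to 527.8 CPM in circulating and 246.1 to 308.6 CPM in muscle libraries. Fmod and Thbs4 held most of the tenocyte sum, and the other markers of this list were divided. Tnmd was lower in every circulating library, with means of 14.7 ± 11.4 CPM there and 43.7 ± 12.04 CPM in muscle (SD, n = 3). Mkx was higher in every circulating library, and its means were 14.4 ± 15.02 CPM there and 1.77 ± 0.455 CPM in muscle. Of this list only Mkx was past the threshold in DESeq2 (adjusted p = 0.00714), and Scx overlapped. The tenocyte markers thus give no direction for that cell type. For these 4 lists the sums did not overlap, and the part of such cells in the levels above was not tested. Platelets carry TGF-beta1, and the 10 platelet and megakaryocyte markers overlapped at 28.9 to 45.4 CPM in circulating and 34.5 to 40.2 CPM in muscle libraries. The remaining lists overlapped as well. Circulating libraries held 12.99 to 19.96 CPM of lymphocyte, 130.2 to 300.9 CPM of red cell, 70.3 to 112.9 CPM of endothelial, 51.2 to 105.9 CPM of muscle fibre and satellite cell and 13.7 to 45.1 CPM of Schwann cell markers. Muscle libraries held 8.46 to 13.6 CPM of lymphocyte, 71.9 to 372.5 CPM of red cell, 82.96 to 143.2 CPM of endothelial, 56.9 to 87.9 CPM of muscle fibre and satellite cell and 25.8 to 63.1 CPM of Schwann cell markers. No listed marker was at 0 in all libraries.

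Of the genes that anchor, process or release latent TGF-beta, 1 of 25 tested was lower over all genes in edgeR and 6 in DESeq2, with none higher. The edgeR call was Thbs1, a thrombospondin that activates the latent complex, at 72.2 ± 27.6 CPM in circulating FAPs, against 476.3 ± 15.4 CPM in muscle (SD, n = 3; -2.72 ± 0.39, adjusted p = 0.0349). With scaling on abundant genes Thbs1 was at -1.93 and did not pass (adjusted p = 0.0801), and no gene of the lists passed with upper quartile scaling or without any 1 of circulating replicates 2 and 3 and muscle replicates 1, 2 and 3. The matrix anchors of the LTBPs were the most abundant members: Fbn1, fibrillin-1, was at 1013 ± 192 CPM in circulating FAPs, against 831 ± 178 CPM in muscle (0.29 ± 0.29, adjusted p = 0.583), and Fn1, fibronectin, at 851.6 ± 369.5 CPM in circulating FAPs, against 1049 ± 192.8 CPM in muscle (-0.30 ± 0.34, adjusted p = 0.625). The other DESeq2 calls were Itgav, Emilin1, Igf2r, Itgb3 and Adamtsl2, and these, Itgb8 and the further genes called by DESeq2 alone were picked after their values were seen. The integrin subunit Itgav, shared by the integrins that bind the latent propeptide, was at 44.5 ± 17.4 CPM in circulating FAPs, against 168.3 ± 56.3 CPM in muscle (-1.92 ± 0.50, adjusted p = 0.147 in edgeR and 0.00693 in DESeq2). Emilin1, which restrains processing of the precursor, was at 3.20 ± 0.4999 CPM in circulating FAPs, against 25.9 ± 10.8 CPM in muscle (adjusted p = 0.127 in edgeR and 1.66e-05 in DESeq2). Itgb8, which pairs with Itgav, was at 7.60 ± 0.457 CPM in circulating FAPs, against 3.38 ± 1.21 CPM in muscle, without passing (adjusted p = 0.292 in edgeR). Igf2r, which can bind the latent complex at the cell surface, was at 48.96 ± 25.7 CPM in circulating FAPs, against 183.8 ± 23.4 CPM in muscle (adjusted p = 0.145 in edgeR and 0.00786 in DESeq2).

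Of the 9 genes whose proteins bind free TGF-beta or alter its access in the matrix, none passed in edgeR (3 lower and 1 higher at an unadjusted p under 0.05) and 2 were lower in DESeq2. Dcn, decorin, was at 4309 ± 1130 CPM in circulating FAPs, against 9816 ± 1967 CPM in muscle (-1.19 ± 0.25, adjusted p = 0.0962 in edgeR), and Bgn, biglycan, at 393.9 ± 48.8 CPM in circulating FAPs, against 1032 ± 36.04 CPM in muscle (-1.39 ± 0.27, adjusted p = 0.0909 in edgeR and 0.0122 in DESeq2). The other DESeq2 call was Lum, lumican (-1.78 ± 0.33). Of 18 co-receptors and receptor regulators, none passed in edgeR (5 lower at an unadjusted p under 0.05) and 3 were lower in DESeq2. The most abundant were Fkbp1a, which holds TGFBR1 inactive, at 195.5 ± 51.4 CPM in circulating FAPs, against 224.3 ± 72.6 CPM in muscle, and Strap, which helps SMAD7 to block the receptor, at 104.2 ± 28.8 CPM in circulating FAPs, against 104.1 ± 37.1 CPM in muscle; neither passed (adjusted p = 0.788 and 0.999 in edgeR). The DESeq2 calls were Acvrl1, an endothelial type I receptor (-1.83 ± 0.55), Dab2, an endocytic adaptor of the receptors (-2.07 ± 0.58), and Ppp1r15a, which brings a phosphatase to TGFBR1 (-1.30 ± 0.41).

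Of 18 genes of SMAD signalling, none passed in edgeR (4 lower at an unadjusted p under 0.05) and 3 were lower in DESeq2: the repressors Tgif1 (-3.14 ± 0.58) and Skil (-1.79 ± 0.47), and Ldlrad4 (-2.44 ± 0.73), which competes for SMAD2 and SMAD3 at the receptor. The most abundant, Ski and Pmepa1, both of them inhibitors of SMAD signalling, had log2 fold changes of -0.57 ± 0.52 and -0.25 ± 0.41 (adjusted p = 0.541 and 0.741 in edgeR). Smad2, Smad3 and Smad4 were at 15.7 ± 6.25, 28.3 ± 6.08 and 29.4 ± 19.5 CPM in circulating FAPs, against 40.5 ± 15.8, 46.3 ± 38.8 and 35.3 ± 20.5 CPM in muscle FAPs, and none passed with either tool. Of 12 target genes tested, none passed in edgeR (4 lower at an unadjusted p under 0.05) and 4 were lower in DESeq2, among them Tgfbi, which encodes a secreted collagen-binding protein, at 99.4 ± 27.8 CPM in circulating FAPs, against 499 ± 113.8 CPM in muscle (-2.33 ± 0.38), Col1a1 and Bhlhe40. Col1a1, a chain of type I collagen, was at 1568 ± 185.3 CPM in circulating FAPs, against 4093 ± 179.2 CPM in muscle (adjusted p = 0.0525 in edgeR and 0.0119 in DESeq2). Ccn2, the connective tissue growth factor, was at 204 ± 56.99 CPM in circulating FAPs, against 193.6 ± 39.5 CPM in muscle (0.08 ± 0.39, adjusted p = 0.920 in edgeR), and Junb, the most abundant target after Col1a1, at 769.2 ± 158 CPM in circulating FAPs, against 1030 ± 244.4 CPM in muscle (adjusted p = 0.429). Shares lower in DESeq2 are to be read against the 10.3% of all genes and 15.4% of abundant genes given above. The medians of the lists of anchoring and release genes, free ligand binders, receptor regulators, SMAD genes and targets were -0.78, -0.19, -0.44, -0.36 and -0.49, beside 0.15 for all genes tested and -0.65 for those of mean at least 20 CPM, and with scaling on abundant genes they were -0.01, 0.57, 0.35, 0.37 and 0.28, beside 0.89 and 0.10.

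**Figure D5:**
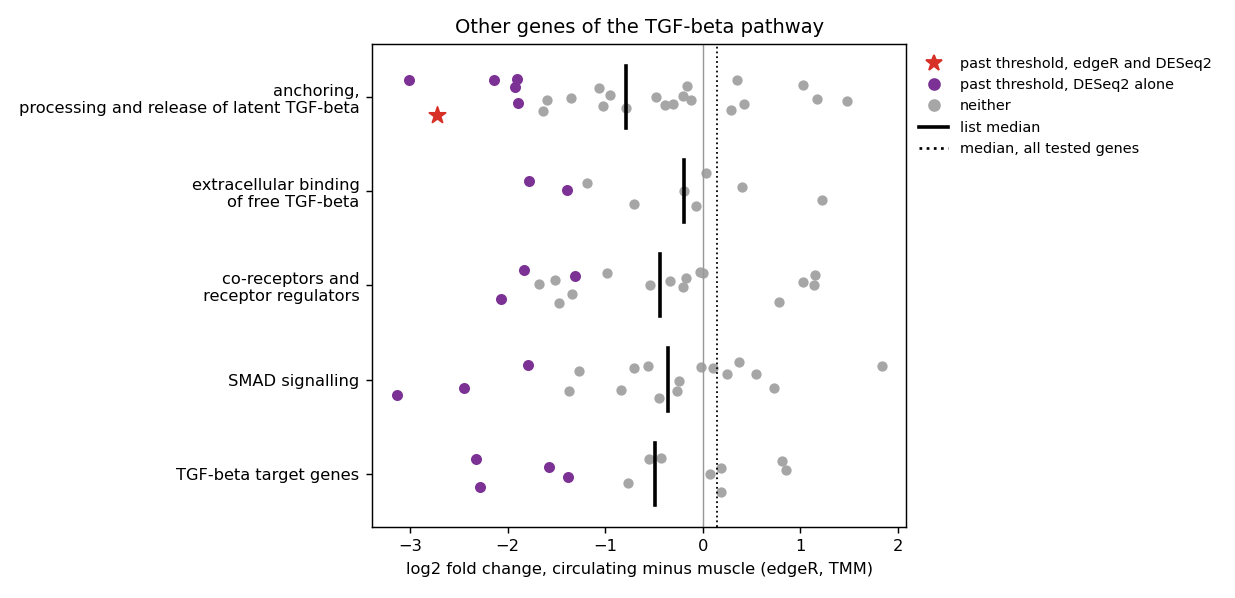
Log2 fold change, circulating minus muscle, in edgeR with TMM scaling for each tested gene of 5 lists of the TGF-beta pathway, with the list median as a black line and the median of all tested genes dotted. Thbs1 alone is past the threshold in edgeR, and the genes past it in DESeq2 all lie on the lower side.

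The genes whose levels followed 1 member of each role most closely over the 6 libraries were named by Pearson correlation of log2 CPM among 4679 genes of mean at least 20 CPM. The member was the one with the highest mean CPM over all libraries, which for the ligands was nearly tied between Tgfb2 and Tgfb3; per kilobase Tgfb3 was higher. The correlations describe 6 points, in which tissue and depth differ together, since every circulating library was shallower than every muscle library. For Tgfb2 they were Lrrk2 (0.997), Ehbp1 (0.995) and Akap13 (0.992), and for Tgfbr3 they were Rab3d (0.997), Enpp2 (0.990) and Rnf19b (0.984). For Ltbp4 they were Gas5 (0.998), Gfpt2 (0.996) and Col3a1 (0.995), the last a chain of the main fibrillar collagens. Col3a1 itself was at 3435 ± 1016 CPM in circulating FAPs, against 9644 ± 500 CPM in muscle (SD, n = 3; adjusted p = 0.0606 in edgeR).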

How the data were processed

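Library preparation used RLT plus lysis and the TruePrep DNA V2 kit, per the labels' protocols. The authors deposited raw counts of reads per gene symbol for 3 circulating and 3 muscle samples. Reads went through Trim Galore, STAR and featureCounts on GRCm39 (submitters' processing notes); versions, options, strand setting and annotation are not given in the sources used here. No label says whether the replicates are different animals; p-values therefore reflect sample-to-sample spread only, possibly technical. Replicates differed far beyond sampling noise (chi-square per degree of freedom 56.1 to 85.4). Replicate numbers recur in both groups, and the labels do not pair them.

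All genes were tested with edgeR 4.0.16 (R 4.3.3; robust quasi-likelihood F test, TMM, filterByExpr, 20248 genes, Benjamini-Hochberg adjustment, threshold 0.05); the filter passed all 10 members. The standard error is the log2 fold change over the square root of F. The common dispersion was 0.381. DESeq2 1.42.0 and 16 other settings were tried. The steps were checked on simulated data. The 2 rows of 18S hold identical counts, and both are included in totals. Exon lengths came from GENCODE M21 (GRCm38) by symbol, for 91.4% of genes, so annotation differences affect levels per kilobase. Shares and ratios were compared with exact permutation tests (scipy 1.17.1), and pair ratios were added after the data were seen. Some genes of the lists are not reported here. The members, the 5 pathway lists and the 11 marker lists were chosen with earlier results of these data known. Named genes are the 10 members, list members past the threshold in edgeR (at most 3), the 2 most abundant of each list and, for the gene of each role with the highest mean CPM, its 3 closest correlates; other genes were chosen after their values were seen.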

Additional observations from a re-analysis of the deposited data

How the results depend on the processing

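No member passed under 15 of 17 other settings. DESeq2 called 3, and leaving out a library gave 0 to 1, the call being Ltbp4 without circulating replicate 1. Over all genes, 22 passed with TMM, 43 with RLE size factors, 2 with upper quartile scaling, 6 with scaling on abundant genes, 160 without a filter, 1542 with DESeq2 and 0 to 65 when each library was left out (65 when it was circulating replicate 1, 0 when it was muscle replicate 3 and 1 for each of the others). In the pathway lists 1 gene passed with TMM, 3 with RLE, 3 with TMMwsp, 0 with upper quartile scaling, 0 with scaling on abundant genes, 8 without a filter, 18 with DESeq2, 2 without 18S, 2 without the robust fit and 0 to 3 when each library was left out (3 without circulating replicate 1).

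Signs turned for Tgfb3 with upper quartile scaling (0.45), library size (0.019), scaling on abundant genes (0.51) and without muscle replicate 3 (0.22; -0.61 to 0.22 over libraries left out), and for Tgfbr3 with upper quartile scaling (0.22) and scaling on abundant genes (0.29). Leaving out a library turned Ltbp1 (-0.091 without circulating replicate 1, up to 0.882) and Ltbp2 (up to 0.99; -0.55 without circulating replicate 1, -0.04 without muscle replicate 2, -0.08 without muscle replicate 3). Among ratios, Tgfbr1 over Tgfbr2 was 0.036 without circulating replicate 1 (-0.653 to 0.036 over libraries left out), Ltbp1 over Ltbp2 -0.36 without muscle replicate 1 (up to 0.695), and Ltbp3 over Ltbp4 -0.36 with background subtracted. The cause was not tested.

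With the replicate number as a block, 1 gene passed over all genes, 0 in the pathway lists and none of the 10. Same-numbered samples did not deviate together (correlations -0.014, 0.054 and -0.001), so the numbers show no pairing. Ltbp1 over Ltbp4 and the share of Ltbp4 had no overlap between the groups, so leaving out 1 library could not turn their direction. With background subtracted the log2 ratio differed by 2.32 and the share by -26.15 points. With shares of raw counts the share of Ltbp4 differed by -32.48 points. The depth limits Tgfb1 (21 to 64 reads) and Ltbp2, which lay near background.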
